A study of Trifolium repens with 6 samples.

Results

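In white clover (Trifolium repens), 56 petal transcripts of a red-flowered mutant were present in every library from plants in the open field and nearly absent from every library of the same mutant under a shading net. They were selected on their measured levels. A unigene, that is a transcript put together from reads without a genome, was taken when it was at least 500 bases long, had an FPKM of at least 10 in each of 3 field libraries and an FPKM under 1 in each of 3 shaded libraries. FPKM is a read level scaled for the length of the transcript and the size of the library. The rule kept 56 of 152107 unigenes in all, of 60810 that were long enough, and of 7952 that met the length and field conditions, called field-high below. The difference between field and shade is thus what chose them, and it is described here without a test.

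Both groups were the red-flowered mutant, strain and tissue (petal) being the same, and all plants stood in the field until flower buds had formed. Before flowering, plants bearing many buds were split into a control group, which stayed in the field and had red petals, and a group whose tops were covered by a net that kept sunlight from the flowers, which had white petals. There were 3 libraries of total RNA per group, with 14221859 to 20414104 expected counts each. Neither the number of plants behind a library nor a shared plant between libraries is given in the labels, so the spread between libraries may be partly technical. Reads came from whole petals, where fewer cells of a type and less RNA per cell cannot be told apart.

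As background, red colour in petals usually comes from anthocyanins, pigments made from phenylalanine through the flavonoid pathway and stored in the vacuole. In Arabidopsis, light promotes their synthesis through the transcription factor HY5 and through complexes of MYB, bHLH and WD40 proteins, and the COP1 ubiquitin ligase acts against it in the dark. The deposited tables give no gene name, function or sequence for a unigene. None of the 56 is therefore tied here to this pathway or to any other, and the petal identity of the libraries was not checked with marker genes. They are described by level, length, assembly cluster and pattern across libraries.

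The members were of moderate level in red petals. Field means ran from 11.1 to 62.9 FPKM with a median of 21.8, and 48 of the 56 had a mean of at least 15, 33 of at least 20, and 7 of at least 30 FPKM. The other 7896 field-high unigenes had a higher median field mean of 30.3 FPKM and reached 11070. Of all expected counts, the 56 together took 0.129%, 0.0802% and 0.0908% in the field libraries, in the order of replicates 1 to 3, and 0.00143%, 0.00193% and 0.00189% in the shaded ones. They were thus a small fraction of the petal RNA in the field and a still smaller one under shade.

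**Figure D1:**
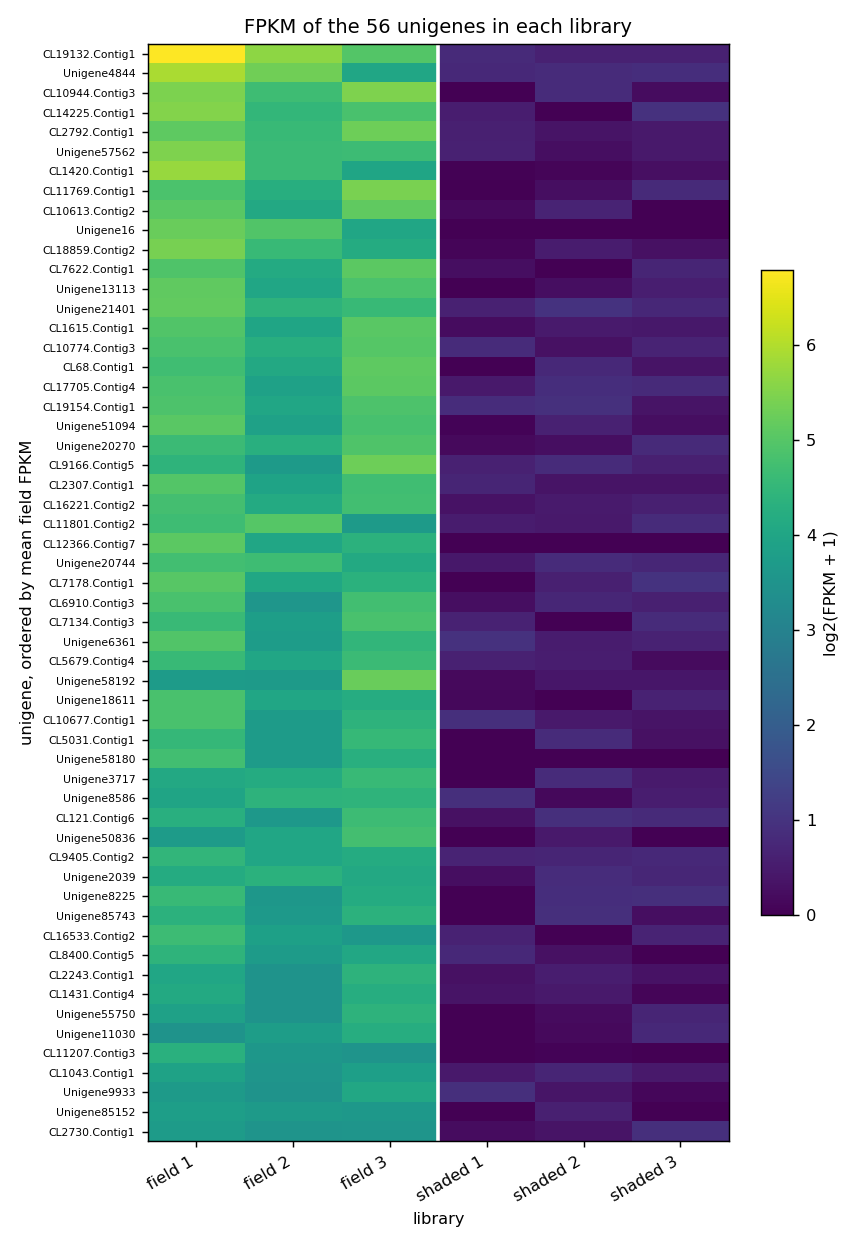
FPKM of each of the 56 unigenes (rows, ordered by mean field FPKM) in the 3 field and 3 shaded libraries (columns), coloured by log2(FPKM + 1). All rows are bright in the field columns and dark in the shaded columns, and many rows are dimmer in field replicate 2 than in field replicates 1 and 3.

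CL19132.Contig1_All (753 bases) had the highest level. Its FPKM was 109.5, 48.91 and 30.18 in the field libraries and 0.76, 0.54 and 0.54 in the shaded libraries, here and below in the order of replicates 1 to 3. The field libraries differed among themselves by 3.63 times between replicates 1 and 3, and the lowest of them was still 39.7 times the highest shaded library. Its 1686 field counts against 19 shaded counts gave a scaled ratio of 102. Here and in later field-to-shade ratios of counts, the scaling used library size adjusted by TMM (trimmed mean of M-values). The 95% interval was 65.3 to 170 for counting error alone (Clopper-Pearson). Reads are not independent molecules, so this and later intervals cover counting error only.

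Unigene4844_All (2880 bases), the longest member, was the second most abundant. It had 60.03, 39.02 and 15.24 FPKM in the field and 0.72, 0.78 and 0.86 FPKM under shade. It kept the most shaded reads of any member, 115 against 4856 in the field, a scaled ratio of 48.7 (40.5 to 59.1). The 3 shaded libraries lay close together while the field libraries spread widely, with an SD of 22.4 FPKM around a mean of 38.1 (n = 3).

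CL1420.Contig1_All (2134 bases) had 52.42, 23.91 and 14.83 FPKM in the field and 0.02, 0.06 and 0.21 FPKM under shade. Like the 2 unigenes above, it was highest in field replicate 1 and lowest in field replicate 3. Its field-to-shade ratio was 320 (174 to 668), from 2774 and 10 counts. CL11207.Contig3_All (1567 bases, singled out after its values were seen) had a single shaded count against 889 in the field, a ratio of 1025 with an interval of 184 to 40542.

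A total of 3 members had no count in any shaded library. Unigene16_All (2517 bases) was the most abundant of them, with 36.72, 29.66 and 15.13 FPKM in the field. Its 3038 field counts put it at least 1168-fold higher in the field, taking a floor of 3 counts over the shaded group. For CL12366.Contig7_All (510 bases; 32.91, 15.17 and 19.38 FPKM in the field) and Unigene58180_All (577 bases; 25.49, 12.12 and 18.63 FPKM) the same floor gave at least 133-fold and 134-fold. Both are short and had 346 and 348 field counts, so their loss is bounded less tightly than that of Unigene16_All.

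Other abundant members had similar levels in field replicates 1 and 3 and a lower level in field replicate 2. CL10944.Contig3_All (571 bases) had 42.89, 24.46 and 43.28 FPKM in the field and 0, 0.79 and 0.16 under shade. CL10613.Contig2_All (692 bases) had 32.21, 16.19 and 33.8 FPKM in the field and 0.12, 0.6 and 0 under shade. CL7622.Contig1_All (678 bases) had 29.12, 16.73 and 32.61 FPKM in the field and 0.19, 0 and 0.63 under shade. In these 3, the groups stood far apart in every library, and each was without a read in 1 of the shaded libraries.

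CL2792.Contig1_All (831 bases; 33.14, 22.93 and 38.37 FPKM) and CL11769.Contig1_All (524 bases; 27.89, 18.14 and 41.79 FPKM) had the same order of field libraries, with replicate 3 highest and replicate 2 lowest. Their shaded values were 0.51, 0.28 and 0.38 FPKM, and 0, 0.18 and 0.75 FPKM. CL14225.Contig1_All (634 bases; 45.47, 21.34 and 27.79 FPKM) and Unigene57562_All (528 bases; 43.7, 23.54 and 23.97 FPKM) were also lowest in field replicate 2, with replicate 1 highest. CL18859.Contig2_All (990 bases) differed from these, with 41.05, 22.85 and 17.08 FPKM and its lowest level in field replicate 3.

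Of the 5 longest members, 2 were low and even in the field. CL2730.Contig1_All (2319 bases) had 12.16, 10.43 and 10.62 FPKM in the field and 0.16, 0.28 and 0.87 under shade, and CL1043.Contig1_All (2300 bases) had 14.14, 10.72 and 13.34 FPKM and 0.39, 0.64 and 0.38. Their field-to-shade ratios of 27.6 (20.7 to 37.6) and 28.4 (21.6 to 38.1) were among the smallest of the 53 members with any shaded count. Over those 53 the ratio had a median of 53.7 and ran from 27.6 to 1025.

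The loss under shade was near complete but seldom total at this depth. Of the 56, 32 had reads in all 3 shaded libraries, 18 in 2 of them, 3 in 1 and 3 in none. A member was without reads in shaded replicate 1 in 17 cases, and in 8 cases each in shaded replicates 2 and 3. Summed over the shaded libraries, members had a median of 11.7 counts, against 666 in the field. The 15 members of under 600 bases had a median of 6 summed shaded counts, so a residual FPKM rests on a handful of reads there.

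The thresholds did not fall in a gap. Members lay at all levels up to them, with 30 of the 56 reaching 0.7 FPKM or more in some shaded library and 16 below 12 FPKM in some field library. Just inside the field threshold, Unigene9933_All, CL2243.Contig1_All and Unigene55750_All had lowest field values of 10.11, 10.16 and 10.19 FPKM. Just outside it, CL447.Contig4_All, CL9535.Contig1_All and Unigene4910_All had 9.84, 9.76 and 9.75 FPKM. Just inside the shaded threshold, Unigene21401_All, CL7178.Contig1_All and CL14225.Contig1_All reached 0.99, 0.98 and 0.97 FPKM, and just outside it CL17828.Contig2_All, Unigene10078_All and Unigene14702_All reached 1.0, 1.01 and 1.03 FPKM.

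**Figure D2:**
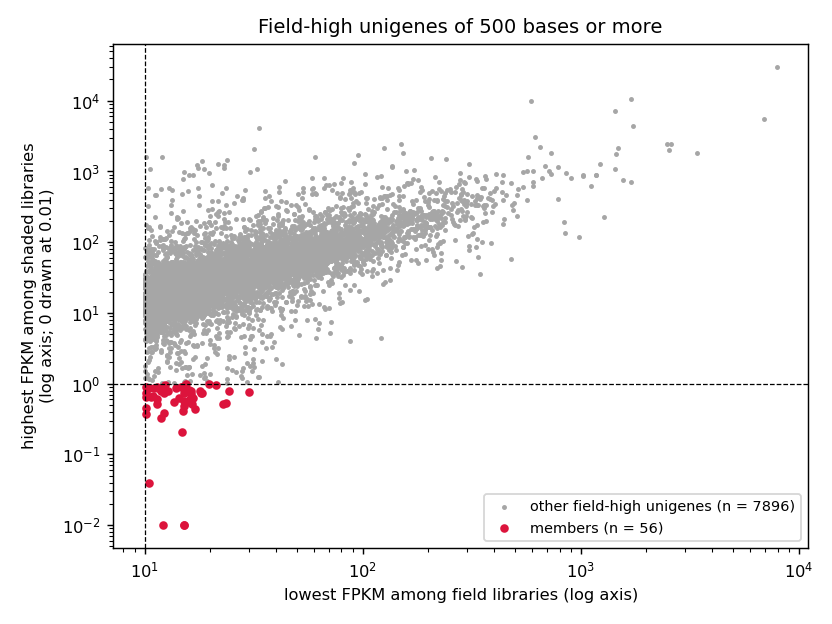
Each point is 1 of the 7952 field-high unigenes, with its lowest field FPKM on the horizontal and its highest shaded FPKM on the vertical log axis; dashed lines mark 10 and 1 FPKM. The 56 members (red) lie at the lower edge of a continuous cloud, and 57 further unigenes lie between 1 and 2 FPKM.

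Such a loss was rare among transcripts of this level. Of the 7952 field-high unigenes, 7329 (92.2%) still reached 10 FPKM in at least 1 shaded library. The highest shaded value was 5 to 10 FPKM in 392, 2 to 5 FPKM in 118, 1 to 2 FPKM in 57 and under 1 FPKM in the 56 members (0.704%). The reverse rule, at least 10 FPKM in every shaded and under 1 in every field library, was met by 33 of 8537 unigenes at that level under shade (0.387%).

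In a fit across all 46778 unigenes with enough counts (edgeR's quasi-likelihood test, shaded against field), all 56 members passed the count filter and all 56 were called lower at a Benjamini-Hochberg adjusted p under 0.05, where 5.53% of all unigenes tested were called lower. The rule used the same contrast, so nothing is read from that count. The share of all unigenes called lower depends on the libraries used. The 2585 calls became 848, 1163 and 1929 without field replicates 1, 2 and 3, in that order. They became 670 and 408 without shaded replicates 1 and 2, and without shaded replicate 3 the number lay between 408 and 1929. Leaving out 1 library also lowers power, and that part of the drop was not tested. The median fitted log2 fold change (shaded minus field) was -5.80 over the members and -0.02 over all unigenes tested, and 23 of the 56 lay under -6. The 3 members without shaded counts lie below this median also at their bounds, so it does not depend on their fitted values. By fragment length, on the log2(FPKM + 1) scale, the members' median difference, which the rule makes large in each class, was -4.05 in the short-fragment libraries (field replicates 1 and 2, shaded replicate 1) and -4.0 in the long-fragment libraries (field replicate 3, shaded replicates 2 and 3).

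The order of the field libraries, which the rule did not use, was uneven among the members. Field replicate 2 was the lowest field library for 41 of the 56 (73.2%), field replicate 3 for 11 and field replicate 1 for 4. Among the other 7896 field-high unigenes it was the lowest for 2231 (28.3%). With CPM (counts scaled to a common library size) adjusted by TMM (trimmed mean of M-values) in place of FPKM, the numbers were 41 of 56 and 2566 of 7896 (32.5%). Unigenes of 1 library share its depth and preparation and are not replicates, so these shares are given without a test.

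The size of that dip was also larger among the members. The median ratio of field replicate 1 to field replicate 2 was 1.71 for the members and 0.99 for the other field-high unigenes, and both libraries are of the short-fragment kind. The ratio of field replicate 3 to field replicate 2 had medians of 1.57 and 0.99. Both ratios were at least 1.5 in 24 members (42.9%) and in 610 of the others (7.73%). Field replicates 2 and 3 differ in fragment class, so their FPKM ratio may depend on transcript length. Field replicate 3 was the highest field library for 46.4% of members by FPKM and 28.6% by TMM-scaled CPM. Among the others the shares were 37.4% and 34.4%. Field levels of a member varied by a median CV (SD over the mean, n = 3) of 34.8%, against 20% for the others, and only 7 members had all field libraries within 1.5 times of each other, against 4149 of the others (52.5%). The dip was present in both length bands: field replicate 2 was lowest in 31 of 40 members under 1000 bases (77.5%; 26.5% of the other field-high unigenes of that length) and in 10 of 16 longer ones (62.5%; 28.7%). Whether the plants, the petals or the preparation behind field replicate 2 differed was not tested.

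**Figure D3:**
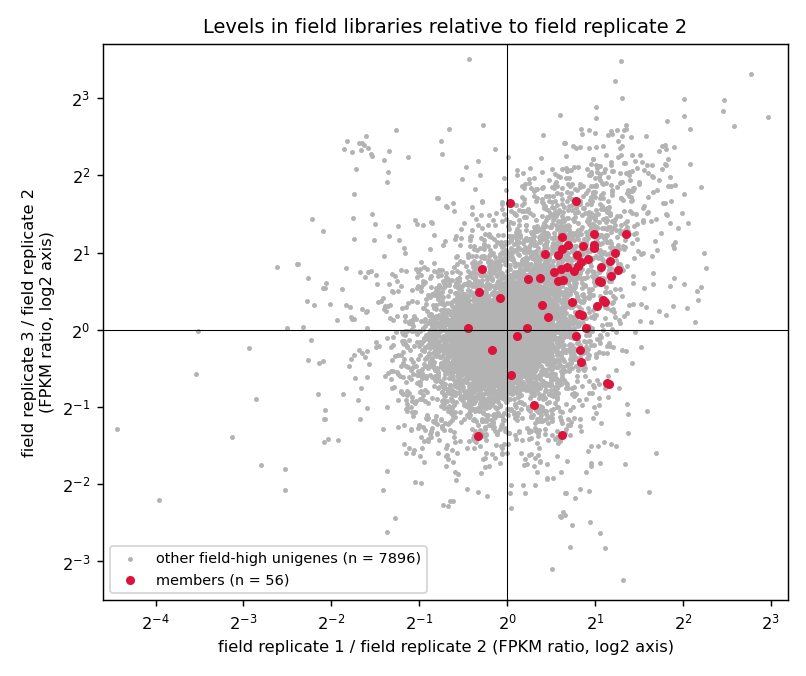
FPKM in field replicate 1 (horizontal) and field replicate 3 (vertical), each divided by FPKM in field replicate 2, on log2 axes, for the 56 members (red) and the 7896 other field-high unigenes (grey). Most members lie in the upper right, where field replicate 2 is the lowest, while the grey cloud is centred near a ratio of 1 on both axes.

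The 4 members lowest in field replicate 1 were all single unigenes, 507 to 1632 bases long. The 11 members lowest in field replicate 3 had median FPKM of 25.4, 23.9 and 15.1 in field replicates 1 to 3, and included Unigene4844_All and Unigene16_All, the longest members. The 41 lowest in field replicate 2 had medians of 27.5, 14.3 and 24.3 FPKM.

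The dip was shared by the unigenes next to the members and ended further up. Of the 57 field-high unigenes with a highest shaded value of 1 to 2 FPKM, 40 (70.2%) were lowest in field replicate 2. The share was 33.1% of the 118 at 2 to 5 FPKM, 35.5% of the 392 at 5 to 10 FPKM and 27.5% of the 7329 at 10 FPKM or more. Length changed more gradually, with medians of 734 bases in the members, 811, 1150 and 1675 bases in the next 3 bins and 1577 bases in the last. The median field CV was 34.8% in the members, 26.8%, 32.7% and 22.2% in the next 3 bins and 19.6% in the last. Neither the dip nor the wide field spread is therefore particular to the 56.

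**Figure D4:**
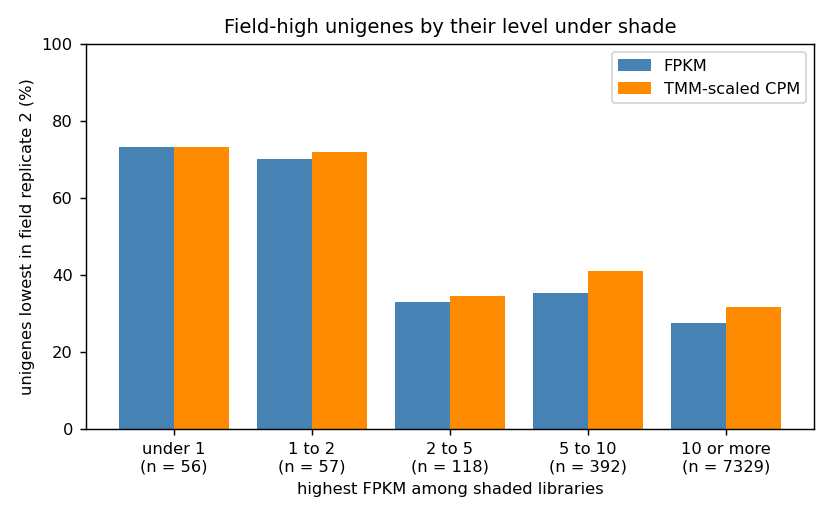
Share of field-high unigenes whose lowest field library was replicate 2, by the highest FPKM among the shaded libraries, for FPKM and for TMM-scaled CPM. Both measures are at or above 70.2% in the bins under 1 and 1 to 2 FPKM and between 27.5% and 41.1% in the 3 bins above.

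The members were short transcripts. Their median length was 734 bases and 40 of the 56 were under 1000 bases, whereas the other field-high unigenes had a median of 1568 bases and 80.6% of them reached 1000. The 11 members of 1500 bases or more had a lower median field mean, 14.8 FPKM, than the 10 members of 800 to 1000 bases, 23.9 FPKM. An assembled unigene can be a fragment of a transcript, so these lengths need not be those of the full RNA.

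Most members had whole expected counts in the field libraries. RSEM, the counting program, splits a read that matches several unigenes, which leaves counts that are not whole. The expected count was whole, within 0.005, in every field library for 39 members (69.6%) and for 2564 of the other field-high unigenes (32.5%). The members also had fewer field counts, with a median sum of 666 against 2176, and the part of depth in this difference was not tested. Within the band of 500 to 1000 bases the shares were 75% and 37.5%, with median field counts of 482 and 950, and at 1000 bases or more they were 56.2% and 31.3%, with 1146 and 2528.

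By assembly, 34 members were contigs of a cluster and 22 were single unigenes, a division (60.7% contigs) close to that of the other field-high unigenes (62.6%). The 34 lay in 34 different clusters, taken here from the shared CL number, and these held 114 further contigs. White clover is an allotetraploid, so contigs of one cluster may be alleles, copies from its parental genomes, splice forms or fragments, which cannot be told apart from the IDs. The member was the longest contig in 25 of the 34 clusters and held a median of 87.7% of its cluster's field counts.

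Summed over all contigs, the shaded level was under 5% of the field level in 29 of 34 clusters and under 10% in 30, with a median of 2.69%. The sum includes the member, so the rule sets most of this fall. Without the member, the other contigs of a cluster were under 5% of their field level in 14 clusters, at 5% to 50% in 17 and above it in 3, with a median of 8.58%. In 27 clusters these contigs together had under 5 CPM in the field, so their percentages rest on few reads. The 3 above their field level were CL9166, CL2730 and CL11801, named after their values were seen. In CL2730 the other contigs went from 0.138 to 0.168 CPM. In CL11801 the other contig, CL11801.Contig1_All (495 bases), had 1 field count and 25 shaded counts. CL1420 went from 62.3 to 0.194 CPM, and the member held 99.5% of the field counts. In CL14225 the second contig fell too. CL14225.Contig2_All (649 bases), which held the larger part, had 47.38, 25.58 and 38.13 FPKM in the field and 0.77, 0.79 and 2.42 under shade (log2 fold change -4.88, adjusted p = 0.00716 in edgeR). It missed the rule through shaded replicate 3 alone, and was named after its values were seen. CL9405.Contig3_All, too short for the rule at 397 bases, fell with the member of its cluster from 63.37, 29.07 and 32.58 to 2.39, 0.64 and 4.06 FPKM (log2 fold change -4.28, adjusted p = 0.0193 in edgeR).

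In the 4 clusters at 10% or more of their field level, other contigs held most of the shaded counts. This was not particular to the 4. In CL11207, at 1.95% of its field level, the member held 3.58% of the shaded counts. In CL19132, the cluster of the most abundant member, CL19132.Contig2_All (775 bases) had 103.58, 69.37 and 126.13 FPKM in the field and 27.61, 27.26 and 12.63 under shade. Its groups did not overlap, and its log2 fold change was -2.21 (edgeR adjusted p = 0.020), against -6.75 for the member. The cluster as a whole was at 13.6% of its field level. In CL12366, whose member had no shaded count, CL12366.Contig9_All (500 bases) went from 46.06, 77.24 and 57.05 to 28.89, 30.54 and 26.39 FPKM (edgeR adjusted p = 0.0386), and the cluster was at 36.8%. In CL1043 the cluster was at 26.8%. CL1043.Contig3_All (2090 bases) had 13.84, 6.33 and 3.18 FPKM in the field and 1.32, 2.16 and 7.45 under shade, with overlapping groups (log2 fold change -1.17, edgeR adjusted p = 0.383), and CL1043.Contig7_All (2054 bases) had no field count and 0, 0.40 and 3.82 FPKM under shade. In the same cluster, CL1043.Contig2_All (2077 bases), below the field threshold at 9.46, 12.64 and 4.88 FPKM, had 0, 0 and 0.12 FPKM under shade (edgeR adjusted p = 0.00939).

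CL9166 was the only one of the 34 clusters whose sum was higher under shade, at 241% of its field level. The member, CL9166.Contig5_All (2147 bases), had 20.38, 11.87 and 37.86 FPKM in the field and 0.54, 0.78 and 0.52 under shade, and held 3.57% of the cluster's field counts. The most abundant other contig, CL9166.Contig7_All (2446 bases), had 176.21, 87.26 and 316.24 FPKM in the field and 538.56, 508.59 and 452.46 under shade. The groups did not overlap, but its log2 fold change of 1.30 did not pass (adjusted p = 0.132 in edgeR). Nor did CL9166.Contig11_All (1.34, adjusted p = 0.107 in edgeR) or CL9166.Contig1_All, which had the largest increase (1.95, adjusted p = 0.0502 in edgeR, just above the threshold). CL9166.Contig4_All (2498 bases) rose from 87.79, 89.88 and 105.9 to 216.3, 244.22 and 235.05 FPKM (1.23, adjusted p = 0.0218 in edgeR). Of the 8 other contigs of CL9166 that were tested, 7 had a positive log2 fold change. The exception was CL9166.Contig16_All (765 bases, -4.64), with 119 field and 5 shaded counts. CL9166.Contig9_All (670 bases), which had too few counts to test, had 82 field counts and 1 shaded count. Both were named after their values were seen.

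**Figure D5:**
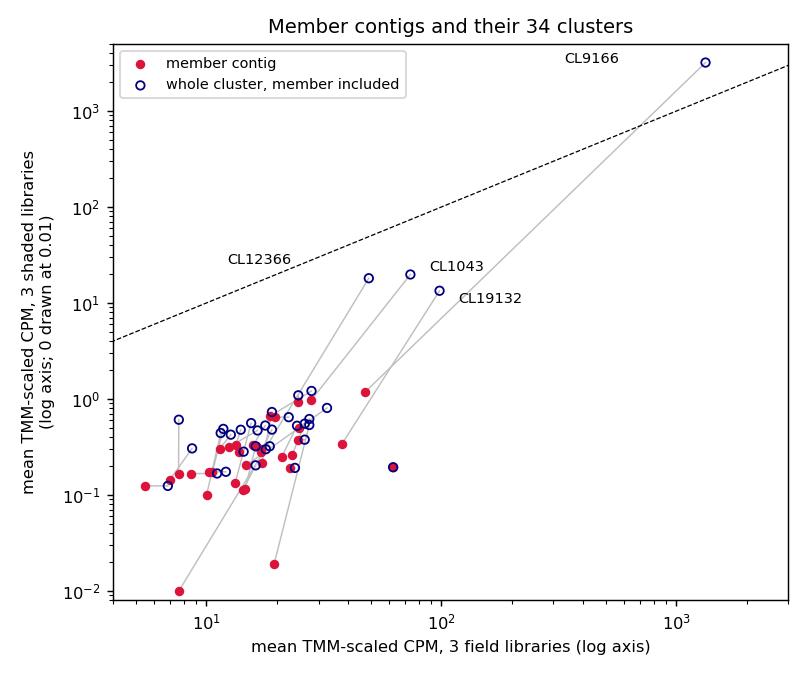
Mean TMM-scaled CPM in the field (horizontal) and shaded (vertical) libraries on log axes for the 34 member contigs (red) and for their whole clusters (open circles), joined by a line; the dashed line marks equal levels. CL9166 lies above it, with 1331 CPM (field) and 3203 CPM (shade), CL1043, CL12366 and CL19132 lie below it, and the sums of the other 30 clusters stay between 0.124 and 1.21 CPM under shade.

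Most of the 114 other contigs were too low to test. They were short, with a median of 396 bases, and low, with a median field mean of 2.65 FPKM, and 29 had enough counts. Of the 29, 12 were called lower (41.4%, against 5.53% of all unigenes tested) and 3 higher (10.3%, against 4.72%) in edgeR. The 3 were CL9166.Contig4_All, CL9166.Contig17_All and CL9166.Contig3_All, the last 2 named after their values were seen. The median log2 fold change was -2.08 over the 29 and -3.53 over the 21 outside CL9166. Some of the 29 had no shaded count and passed the count filter through the field libraries alone. A low contig kept in this way is bound to come out lower under shade. The shares and medians are therefore descriptions, and nothing is read from their distance to all unigenes tested. Leaving out field replicate 1 brought the number called lower to 2 of 32 tested. Without shaded replicate 1 it was 3 of 47, and without shaded replicate 2 it was 2 of 47. With any other single library left out it was 8 or 9. In the first 3 of these fits, calls over all unigenes fell too, from 2585 of 46778 to 848 of 51294, 670 of 51627 and 408 of 52420. The drop is therefore not read as a trait of these contigs. Contigs of one cluster can exchange reads in RSEM, so their changes are not independent of the members'.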

How the data were processed

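The authors deposited, per the file headers, 1 table per library with the length, expected count and FPKM of each unigene. The deposited expected count is an estimated count of reads without normalisation, and the deposited FPKM is scaled for length and library size. RSEM 1.2.12 and DESeq are named, per the submitters' processing notes, while how reads were filtered, assembled and aligned is not given in the sources used here.

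The 6 tables were joined on unigene ID, with 0 for a unigene absent from a table. Totals of 14221859 to 20414104 expected counts per library limit what is seen at low level. Groups followed the source labels. The rule for the 56 members was applied to FPKM. Expected counts were rounded and filtered with filterByExpr (count minimum 10), and edgeR 4.0.16 in R 4.3.3 (TMM, robust quasi-likelihood test, two-sided, no covariate) compared 3 shaded with 3 field libraries over all unigenes, with Benjamini-Hochberg adjustment over 46778 and calls under 0.05. The procedure was tested on simulated data. Fragment classes were divided at 180 bases by the median of length minus effective length, a quantity derived from expected counts and FPKM of unigenes over 200 counts. Other steps ran in Python 3.11.15 with scipy 1.17.1 and pandas 2.3.3. Alternatives were DESeq2 1.42.0, limma 3.58.1 on log2(FPKM + 1) and log2(FPKM + 0.1), other scaling, no filter, covariates, single libraries left out and other thresholds of the rule.

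The members, the lists and the tests were chosen with earlier results of these data known. Unigenes were named by rank of field level (12), length (5), absence of shaded counts and nearness to the thresholds (3 on each side), and other contigs of member clusters by level (3) and by fold change (3). CL9405.Contig3_All, CL14225.Contig2_All, CL19132.Contig2_All, CL12366.Contig9_All, CL1043.Contig2_All, CL1043.Contig3_All, CL1043.Contig7_All and other exceptions were named after their values were seen.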

Additional observations from a re-analysis of the deposited data

How the results depend on the processing

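The number of members follows its thresholds. It was 131 at a field FPKM of at least 5, 5 at a field FPKM of at least 20, 12 at a shaded FPKM under 0.5, 113 at a shaded FPKM under 2 and 16 at a length of at least 1000 bases. It was 74 with no minimum length, 55 with FPKM rescaled by TMM factors (52 of them among the 56), 42 with FPKM summed over clusters, and 56 to 84 with 1 library left out. All 56 were called lower in every fit with 6 libraries and no block, and 47 to 56 with 1 library left out. The rule used the same contrast, so these counts are no measure of stability. The labels do not pair the libraries, and deviations of same-numbered libraries correlated at -0.01, 0.01 and -0.09. With the replicate number as a block, 25 members were called, and 224 unigenes in all. Over all unigenes, 2585 were called lower, 4995 with DESeq2, 4315 with limma on log2(FPKM + 1), 6068 with no filter on low counts, 1216 with the fragment class covariate, and 408 to 1929 with 1 library left out. The members' median log2 fold change of -5.80 was -3.90 with limma on log2(FPKM + 1), where the pseudocount narrows low values, and -6.02 to -5.73 with 1 library left out. For the other contigs of their clusters, -2.08 became -1.26 with limma on log2(FPKM + 1), -4.10 with no filter, where 114 instead of 29 were tested, and -3.49 to -2.01 with 1 library left out. The cause of the other shifts was not tested. The 22 named members kept their direction in all these fits, which the rule fixes in advance, so nothing is read from it. Of the 22, 12 lost their call under the block, 5 without shaded replicate 2, and 1 each without field replicate 1 and without shaded replicate 1. Other contigs called lower, counted in each fit after seeing the data, numbered 12 of 29 tested. They were 7 of 29 with the fragment class covariate, 1 of 29 with the block and 29 of 114 with no filter. Over all unigenes, the calls in these 4 fits were 2585, 1216 and 224 of 46778, and 6068 of 152055. The shifts are therefore not read as a trait of these contigs. Depth limits the residual level under shade, a median of 11.7 counts per member over the shaded libraries.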
